A study of Mus musculus with 6 samples.

Results

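The genes described here write, copy and remove methylation of cytosine in DNA, and they were followed through repair of the mouse tracheal epithelium. All probe sets that the array annotation gives to exactly 1 of the symbols Uhrf1, Dnmt1, Hells, Uhrf2, Dnmt3a, Dnmt3b, Tet1, Tet2 and Tet3 were taken, which makes 24 probe sets of 9 genes, out of 45037 probe sets and 18193 genes with a symbol of their own. The gene set was selected on the rise of Uhrf1 in the same comparison of control and injured epithelium. Its changes are therefore a description of these arrays, and its counts are not evidence about the set.

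Adult C57Bl/6 mice breathed 500 ppm SO2 for 4 h, which strips the luminal cells from the tracheal surface and leaves basal cells (BCs) to rebuild it, and the epithelium was collected at 48 h post injury (48 hpi). Control epithelium came from normal mice of the same strain. Each group had 3 biological replicates of 4 pooled tracheas, and both groups were peeled after protease digestion and depleted of CD45+ leukocytes. RNA was measured on Affymetrix arrays and the levels are log2 values after robust multi-chip analysis (RMA), so a difference of 1 is a 2-fold change. A pool averages over 4 mice and over every cell type in the sheet, and in such bulk samples a smaller share of a cell type and less RNA per cell cannot be told apart.

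When a cell copies its DNA, each CpG site passes through a state in which the old strand alone carries the methyl group. Uhrf1 recognises that state and brings in the maintenance enzyme Dnmt1, while the remodeller Hells (Lsh) opens packed chromatin for methylation. Dnmt3a and Dnmt3b methylate sites anew, and Tet1, Tet2 and Tet3 oxidise 5-methylcytosine, after which it can be lost by dilution or by base excision repair. Uhrf2, the paralog of Uhrf1, binds hydroxymethylated DNA and is not known to replace Uhrf1 in maintenance.

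Because Uhrf1, Dnmt1 and Hells moved together on the array, their promoters were compared. RefSeq windows of GRCm38.p6, from 250 bases before to 50 bases after each annotated start, were searched on both strands for 4 forms of the core letters bound by E2F factors (TTTCCCGC, TTTGGCGC, TTTCGCGC and TTTGCCGC), a choice made after the expression values had been seen. The stretches of 30 bases that hold these letters before the start are given 5′ to 3′ on the strand of the gene, with the E2F letters, in either orientation, in capitals. The Uhrf1 stretch is chr17:56304117-56304146 (plus strand), the Dnmt1 stretch chr9:20952824-20952853 (minus strand) and the Hells stretch chr19:38930917-38930946 (plus strand).
Uhrf1: cccgagtcgggTTTCGCGCgcccaggcgtc
Dnmt1: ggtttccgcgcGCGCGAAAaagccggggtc
Hells: gaccaccgggtTTTCCCGCgaaagagaagc

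In these coordinates the first capital lies at −185 for Uhrf1, −219 for Dnmt1 and −62 for Hells, counted from the annotated start of the window. Uhrf1 and Dnmt1 have the same letters, TTTCGCGC, on opposite strands, and Hells has TTTCCCGC. The same Dnmt1 window holds a further match, TTTGGCGC, that begins at position 34 after the start. Each of the 3 maintenance genes had the letters in 1 window, so that 3 of 6 maintenance windows held them. None of the 8 windows of Uhrf2, Dnmt3a, Dnmt3b, Tet1, Tet2 and Tet3 did, which is near the share of all mouse promoter windows (744 of 32851, 2.26%). Of 23 windows of DNA replication genes 10 held them (43.5%). Other letters were shared more widely. GGGCGG, bound by Sp factors, was in 4 of 6 maintenance windows and 8 of 8 of the others (35.7% of all windows). CCAAT, bound by NF-Y, was in 4 of 6 and 1 of 8 (37.4% of all), and the cell cycle element TTTGAA in 1 of 6 and 1 of 8 (17.9% of all). No E2F letters of the maintenance genes overlapped one of these other motifs. Every gene had at least 1 window richer in CpG than the median of 7 over all windows, from 17 CpG sites in the Tet1 window to 57 in that of Tet2. A match in letters is a description of the sequence and was not tested as a binding site.

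The arrays matched their labels as epithelium. All 5 epithelial markers were above background in both groups, background being the 95th percentile over 79 receptor probe sets of the olfactory, vomeronasal and trace amine families, taken as silent in trachea (4.94 in control and 4.81 at 48 hpi). The leukocyte marker Ptprc, which encodes CD45, was within background (3.04 in control and 2.83 at 48 hpi), while 4 of 7 leukocyte markers were above it. The cell make-up of the sheet differed between the groups. The log2 of the summed levels of 10 ciliated cell markers was 11.2 to 11.7 in control pools and 9.96 to 10.8 at 48 hpi, that of 8 secretory cell markers 16.9 in all 3 control pools and 15.7 to 16.4, and that of 4 basal cell markers 11.7 to 11.8 and 12.6 to 13.1. The basal sum followed the keratins Krt14 (change 3.18) and Krt5 (0.69), while Ngfr was lower (−0.66) and Trp63 was not called (−0.34). Of 6 fibroblast markers Dcn was lower, from 10.3 to 8.47, and the other 5 were not called, with changes from 0.11 to 1.04 and a list median of 0.37. Their summed level, 10.2 to 10.7 in control and 8.20 to 9.55 at 48 hpi, therefore followed Dcn. The third 48 hpi pool stood apart, with correlations of 0.990 and 0.992 to the other two against 0.996 between those, the lowest ciliated and secretory sums and the lowest Dcn (7.46). Among the basal markers it had the highest Krt14 and Krt5 and the lowest Ngfr (7.18) and Trp63 (8.28) of the 48 hpi pools. The part of these differences in the changes below was not tested.

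The genes of maintenance rose at 48 hpi, those of de novo methylation changed little and in both directions, and no probe set of a Tet gene was called higher. By limma over all probe sets at an adjusted p below 0.05, 7 of 8 maintenance probe sets were called higher and none lower. Of 7 de novo probe sets 1 was higher and 1 lower, of 7 Tet probe sets 1 was lower, and neither Uhrf2 probe set was called. The 24 probe sets thus gave 8 higher, 2 lower and 14 not called, 19 of them being above background in at least 1 group. Among all probe sets 14.5% were called higher and 13.9% lower. Counted by the brightest probe set of each gene, 3 of the 9 genes were higher (Uhrf1, Dnmt1 and Hells), 2 lower (Dnmt3a and Tet2) and 4 not called, where 18.4% of all genes were higher and 16.1% lower.

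Uhrf1 made the largest step of the 9 genes on its brightest probe set. On probe set 1415810_at the control pools read 5.31, 5.66 and 5.85 and the 48 hpi pools 9.45, 9.62 and 9.98. The groups were separated by a wide gap, and every control pool lay above background. The mean went from 5.61 ± 0.27 to 9.68 ± 0.27 (SD, n = 3), a log2 change of 4.07 (SE 0.17, 95% interval 3.67 to 4.48) or 16.9-fold (12.7 to 22.3). By size of rise it was number 6 of 18193 genes. The other probe set, 1415811_at, read 5.22, 5.44 and 5.72 in control and 7.99, 8.05 and 8.51 at 48 hpi. It gave the same direction with a smaller change of 2.73 (SE 0.17, interval 2.32 to 3.13), 6.61-fold. The 2 intervals did not overlap, so the size of the rise of Uhrf1 depended on the probe set.

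Dnmt1, the enzyme that Uhrf1 recruits, started well above background and rose by a smaller amount. Probe set 1435122_x_at read 7.82, 7.74 and 7.85 in control and 9.40, 9.50 and 9.97 at 48 hpi. The control pools were nearly equal, and all 48 hpi pools were higher than any of them. The mean changed from 7.81 ± 0.06 to 9.62 ± 0.30 (SD, n = 3), by 1.82 on the log2 scale (SE 0.15, interval 1.48 to 2.16) or 3.52-fold. The other Dnmt1 probe sets stood close to this value, with 1.83 (SE 0.14) on 1422946_a_at and 1.70 (SE 0.14) on 1447877_x_at. Its 3 probe sets gave folds from 3.26 to 3.55, a narrow range beside those of Uhrf1 and Hells.

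Hells, the chromatin remodeller, rose on both probe sets that were above background, by very different amounts. The brightest over the 6 arrays, 1430139_at, read 6.14, 6.32 and 6.44 in control and 7.31, 7.43 and 8.03 at 48 hpi. The log2 change was 1.29 (SE 0.19, interval 0.86 to 1.72), 2.44-fold, and the groups did not overlap. On 1417541_at the control pools read 4.46, 4.11 and 4.83, all within background, and the 48 hpi pools 8.94, 9.18 and 9.53. The fitted change of 4.75 (SE 0.21) starts from levels that carry little signal. Counted from the control background level the 48 hpi mean was 19.4-fold higher. The mean of the Hells probe sets changed by 2.45. The third probe set, 1453361_at, had means within background in both groups and was not called, with pools of 3.03, 3.91 and 5.56 at 48 hpi. Its change was 1.31, 0.61 without the third 48 hpi pool, and 1.88 and called without the first.

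**Figure D1:**
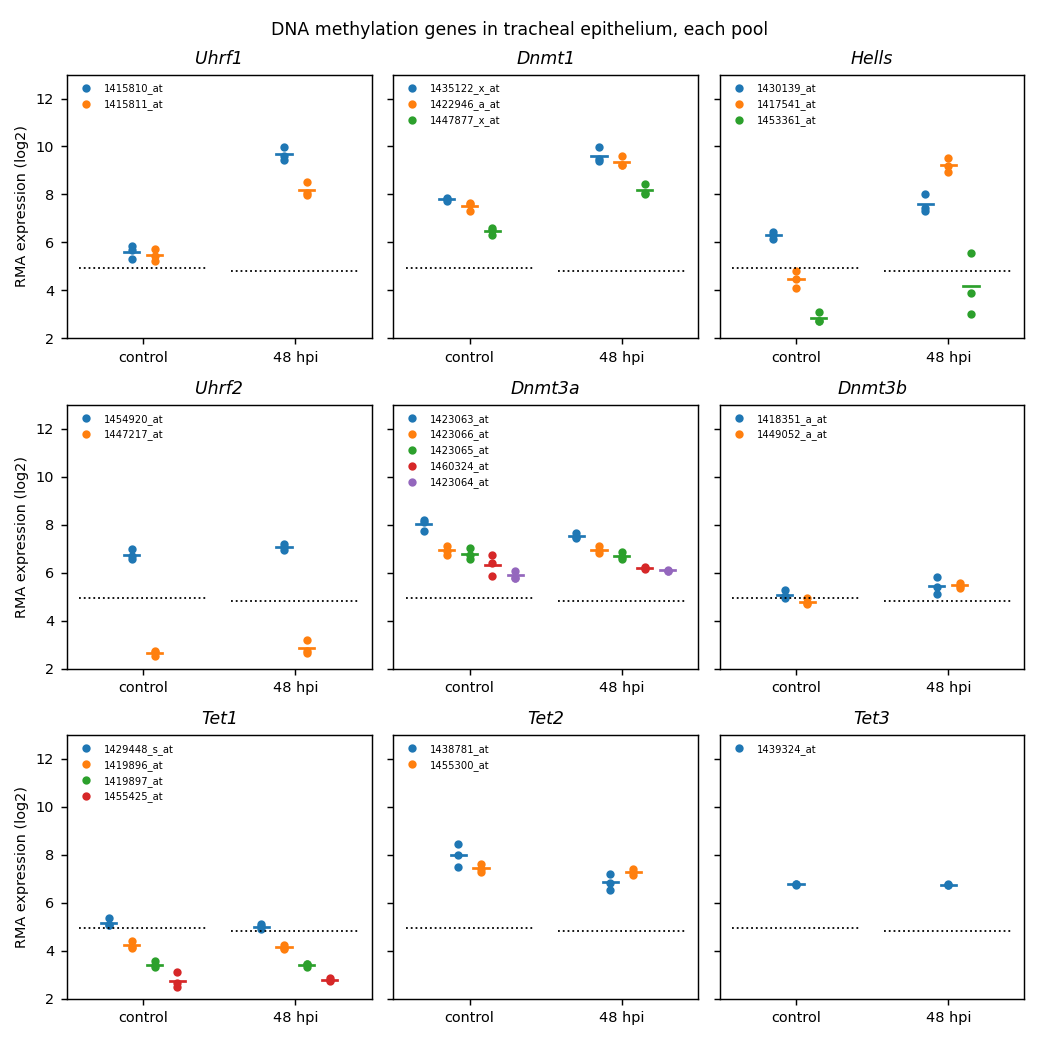
RMA expression on the log2 scale of every probe set of the 9 genes in each pool (n = 3 per group). Points are pools, short bars group means and dotted lines the background level of each group. Control and 48 hpi pools are far apart for Uhrf1 (5.31 to 5.85 against 9.45 to 9.98 on 1415810_at) and Dnmt1 and lie at the same level for Tet3, and one Hells probe set starts within background. Heights of different probe sets are not comparable.

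The third 48 hpi pool was the highest of its group on all 8 maintenance probe sets. When it was left out, the change of Uhrf1 was 3.93 on 1415810_at and 2.56 on 1415811_at, that of Dnmt1 1.64 on 1435122_x_at, and that of Hells 1.07 on 1430139_at and 4.59 on 1417541_at, each still called higher. As the median over the 3 genes of each pool's distance from the control mean, maintenance stood at 1.60, 1.69 and 2.16 in the 48 hpi pools and between −0.16 and 0.14 in the control pools. In the 48 hpi pools these medians were the values of Dnmt1 on 1435122_x_at.

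Uhrf2, the paralog of Uhrf1, changed little. On 1454920_at the control pools read 6.59, 6.70 and 6.98 and the 48 hpi pools 6.94, 7.20 and 7.07, so that the groups overlapped. The log2 change was 0.31 (SE 0.13, interval 0.03 to 0.60) and was not called. Its interval lay below the whole interval of either Uhrf1 probe set. A further Uhrf2 probe set, 1447217_at, was within background in both groups.

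Dnmt3a, which methylates unmethylated sites, was lower at 48 hpi on 1 of its 5 probe sets. That probe set, 1423063_at, was the brightest and read 7.75, 8.11 and 8.19 in control and 7.45, 7.67 and 7.48 at 48 hpi. The highest 48 hpi pool was just below the lowest control pool. The level fell by 0.48 on the log2 scale (SE 0.13, interval −0.79 to −0.18), which is 1.40-fold, and the call was lost without 48 hpi replicate 3 (−0.46), 48 hpi replicate 1 (−0.44), control replicate 2 (−0.44) or control replicate 3 (−0.40). The mean of all Dnmt3a probe sets changed by −0.09 and was not called. The call was also lost with equal hybridization controls (−0.14) or a common median (−0.40), scalings that raise every probe set alike. The other 4 probe sets were above background and not called, with changes from −0.15 (1460324_at) to 0.21 (1423064_at). The probe sets of Dnmt3a thus did not share a direction.

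Dnmt3b, the second de novo enzyme, was close to background. Probe set 1449052_a_at read 4.73, 4.69 and 4.94 in control, a mean within background, and 5.45, 5.38 and 5.57 at 48 hpi. It was called higher by 0.68 (SE 0.10, interval 0.44 to 0.92), and counted from the control background level the 48 hpi mean was 1.44-fold higher. On the brighter probe set, 1418351_a_at, the pools of the groups overlapped, at 5.28, 5.02 and 4.95 against 5.40, 5.12 and 5.82, with a change of 0.36 (SE 0.18, interval −0.05 to 0.78) that was not called.

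Among the oxidising enzymes Tet2 was lower, Tet3 was level and Tet1 was barely measured. Tet2 on 1438781_at read 7.49, 8.01 and 8.43 in control and 6.54, 6.82 and 7.19 at 48 hpi. The control pools were widely spread, yet all were higher than the 48 hpi pools. The mean fell from 7.98 ± 0.48 to 6.85 ± 0.32 (SD, n = 3), a log2 change of −1.13 (SE 0.25, interval −1.70 to −0.55), and was 2.18-fold higher in control. A lower change than this was found in 2.90% of genes. Without the third 48 hpi pool the change was −1.29 and still called. The other Tet2 probe set, 1455300_at, changed by −0.15 (SE 0.12, interval −0.42 to 0.12), was not called, and had overlapping pools of 7.27 to 7.60 and 7.14 to 7.41. The 2 intervals for Tet2 did not overlap, so its fall was seen on 1 probe set and not on the other. Their mean changed by −0.64, and the call on 1438781_at was lost when each probe set was tested alone by a one-way analysis of variance with adjusted p-values.

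Tet3 had 1 probe set, 1439324_at, which read 6.78, 6.75 and 6.77 in control and 6.73, 6.79 and 6.73 at 48 hpi. This was the tightest pair of groups in the set. The change of −0.01 (SE 0.08) had an interval from −0.20 to 0.17. Tet1 was above background on 1429448_s_at alone, by a small margin, with pools of 5.38, 5.07 and 5.07 in control and 4.89, 5.04 and 5.11 at 48 hpi. Its change of −0.16 (SE 0.12) was not called, and its other 3 probe sets were within background in both groups.

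**Figure D2:**
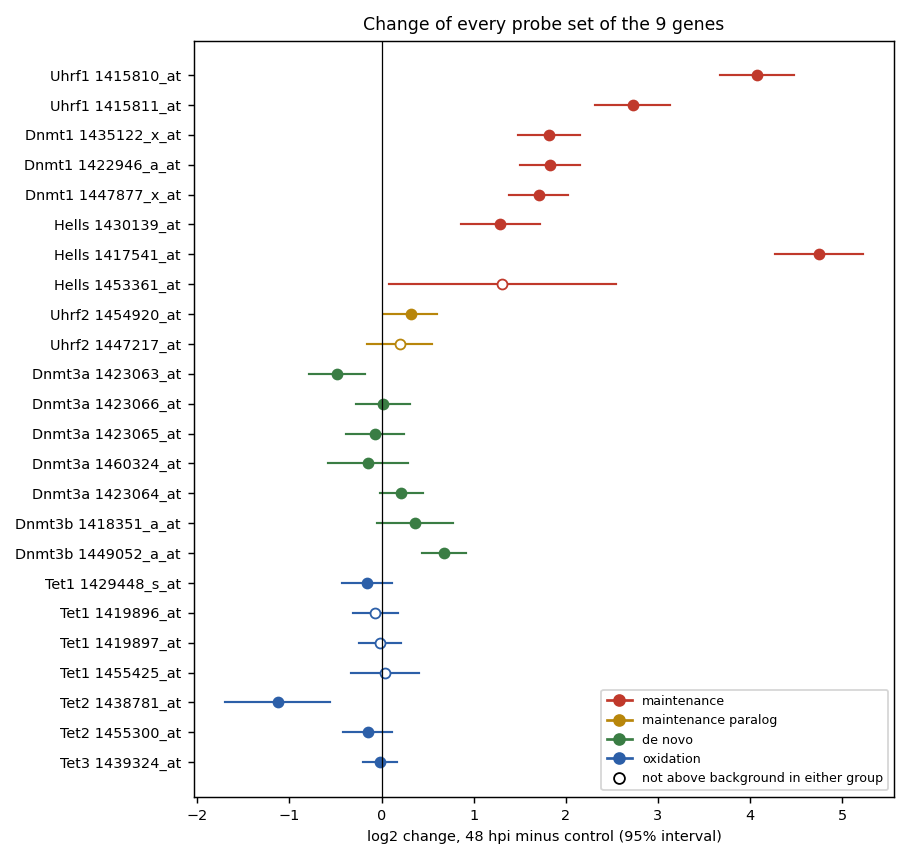
Log2 change (48 hpi minus control) of each of the 24 probe sets, with its 95% interval, coloured by role. Open circles mark probe sets within background in both groups. The filled maintenance points lie between 1.29 and 4.75, those of de novo methylation between −0.48 and 0.68 and those of oxidation between −1.13 and −0.01.

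Set side by side, the median change over genes on the brightest probe set was 1.82 for maintenance, −0.06 for de novo methylation and −0.16 for oxidation, beside −0.02 over all genes. Over all probe sets of each role the medians were 1.82, 0.02 and −0.07. Both maintenance medians fell on the values of Dnmt1. On the brightest probe set Dnmt1 lay between Hells (1.29) and Uhrf1 (4.07), while Hells on 1417541_at changed by 4.75. With the mean of probe sets the maintenance median was 2.45, so it depended on the choice of probe set. Within the maintenance group, the interval of Uhrf1 on 1415810_at lay above those of Dnmt1 on all of its probe sets, while the intervals of Dnmt1 and of Hells on 1430139_at overlapped. The medians of the de novo and Tet genes depended on how the arrays were scaled. With equal hybridization controls on all arrays they were 0.28 and 0.18, and that of maintenance was 2.16. This scaling raised the change of every probe set alike by 0.34, so the order of the roles could not change under it. Of all called genes 53.2% were higher, against 83.7% with this scaling and 64.2% with a common median. Calls with equal hybridization controls did not weigh the scatter of each probe set, since that fit gave probe sets the same SE (0.24).

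Since maintenance acts behind the replication fork, the 3 genes were set beside 27 DNA replication genes, of which 25 were measured. All 25 were called higher, with a median change of 2.55. They ran from 0.77 for Tyms, whose probe set was within background, to 3.95 (SE 0.18) for Rrm2, a subunit of ribonucleotide reductase. Next to Rrm2 came Mcm3 with 3.74 (SE 0.14) and Mcm5 with 3.41 (SE 0.16), parts of the replicative helicase, and the licensing factor Cdt1 with 3.30 (SE 0.15). Each replication gene was counted on its brightest probe set, and none then had a larger change than Uhrf1 on its brightest probe set. Another Rrm2 probe set, with a control mean of 5.15, changed by 4.23 (SE 0.13). The order of Uhrf1 and Rrm2 therefore depended on the probe set. In the same count 9 replication genes had a larger change than the second Uhrf1 probe set, and 18 exceeded Dnmt1 on 1435122_x_at. For Hells 22 exceeded 1430139_at and none exceeded 1417541_at, which started within background. All of the replication genes exceeded Uhrf2, Dnmt3a, Dnmt3b and the Tet genes.

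**Figure D3:**
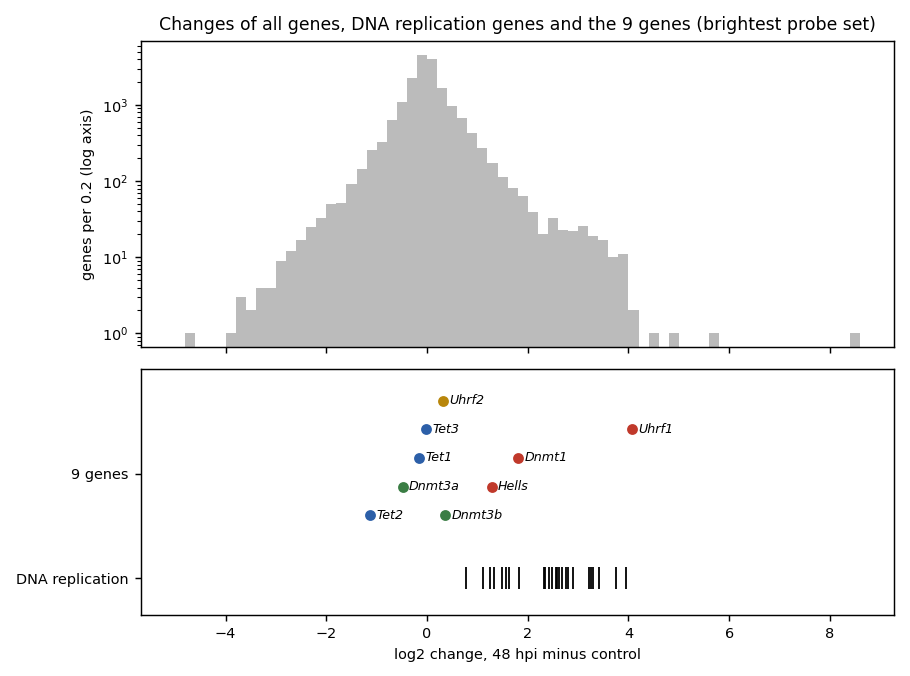
Top, number of genes (log axis) by log2 change, 48 hpi minus control, over 18193 genes on the brightest probe set. Bottom, the 9 genes (points, coloured by role, height without meaning) and 25 DNA replication genes (ticks) on the same axis. Replication genes are drawn on their brightest probe set. Uhrf1 at 4.07 lies to the right of every tick, and Dnmt1 and Hells (1430139_at) lie among the lower ones. Tet2 at −1.13 is the lowest of the 9. Another Rrm2 probe set (4.23) is not drawn and would lie to the right of Uhrf1. The other Hells probe set above background, 1417541_at (4.75), is not drawn and would lie to the right of every replication gene.

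The other genes of DNA methylation were taken from 7 lists of 69 genes, of which 60 were measured. Of these 24 were higher (40.0%) and 10 lower (16.7%), with a median change of 0.24, beside 18.4% higher and 16.1% lower of all genes. The share called lower was thus near that of all genes. The proteins that work with maintenance gave 7 higher and none lower of 10, with a median of 0.90. Lig1, the ligase that joins new fragments of the lagging strand and binds Uhrf1, rose by 2.49 (SE 0.10), and the replication clamp Pcna by 1.70 (SE 0.12). Cdca7, which works with Hells, rose by 1.55 (SE 0.11) on its brighter probe set and was not called on the other, within background. Smchd1, a chromosomal protein of the inactive X chromosome, rose by 1.00 (SE 0.10). Lig1, Pcna and Cdca7 are also genes of dividing cells.

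Of 7 de novo partners 1 was higher (14.3%, beside 18.4% of all genes) and none lower, with a median of 0.00. The 1 called was Trim28, a corepressor that silences retroelements, at 0.73 (SE 0.09).

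Base excision repair and deamination, the steps that can replace an oxidised or deaminated base, gave 6 higher and 2 lower of 13. The shares were 46.2% and 15.4%, beside 18.4% and 16.1% of all genes, so the share called lower was near that of all genes. Ung, the uracil glycosylase, rose by 2.37 (SE 0.23) from a control mean of 4.86, within background. The endonuclease gene Apex1 rose by 1.31 (SE 0.16), Mbd4, a glycosylase for mismatched thymine at CpG sites, by 1.09 (SE 0.18) and on all 3 of its probe sets, and Parp1 by 0.77 (SE 0.12). The 2 lower genes were stress-response members of one family. Gadd45g read 9.36, 8.99 and 9.15 in control and 8.04, 7.16 and 6.79 at 48 hpi, a change of −1.84 (SE 0.28), and Gadd45b changed by −0.59 (SE 0.16). The 48 hpi pools of Gadd45g were spread widely, with the lowest in the pool that stood apart.

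The partners of Tet enzymes and the enzymes that supply or clear their cofactor gave 1 higher and 4 lower of 9. That was 11.1% and 44.4%, beside 18.4% and 16.1% of all genes, with a median of −0.10. Cxxc4 and Cxxc5, which carry the CpG-binding CXXC domain and are known to bind Tet2, changed by −1.20 (SE 0.18) and −0.85 (SE 0.12). Cxxc4 was near background at 48 hpi (5.03), and both Cxxc5 probe sets were lower. Idh1, an isocitrate dehydrogenase that makes 2-oxoglutarate in the cytosol, changed by −0.68 (SE 0.13) and D2hgdh, which clears 2-hydroxyglutarate, by −0.41 (SE 0.08). Neither was called on its other probe set, with −0.39 for Idh1 and −0.12 for D2hgdh. Idh3a, a subunit of the isocitrate dehydrogenase of the citric acid cycle, rose by 1.35 (SE 0.10) on its brightest probe set and was not called on the other 3.

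Genes of the methyl-CpG reader families, not all of them readers themselves, gave 2 higher and 1 lower of 7, with a median of 0.21. That was 28.6% and 14.3%, beside 18.4% and 16.1% of all genes. Mbd3, a subunit of the NuRD complex, rose by 0.79 (SE 0.13) and its relative Mbd2 by 0.47 (SE 0.09). Zbtb4, a zinc finger repressor that binds methylated CpG, read 9.67, 9.72 and 9.73 in control and 8.24, 8.42 and 7.49 at 48 hpi, a change of −1.66 (SE 0.21) that was called on 3 of its 4 probe sets. Among 4 proteins that bind unmethylated CpG islands, Kdm2b rose by 0.87 (SE 0.11), Kmt2a fell by 0.52 (SE 0.12) and the other 2 were not called.

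The enzymes that supply S-adenosylmethionine, the methyl donor of all Dnmt enzymes, gave 6 higher and 2 lower of 10, with a median of 0.64. These were 60% and 20%, beside 18.4% and 16.1% of all genes, so the share called lower was near that of all genes. Shmt2, which makes 1-carbon units in mitochondria, rose by 2.35 (SE 0.17) and on all 4 probe sets. Ahcy, which removes the S-adenosylhomocysteine left after methyl transfer, rose by 1.77 (SE 0.13). Mtr and Mtrr, which remake methionine, rose by 0.93 (SE 0.12) and 0.87 (SE 0.14). Ahcyl2, an Ahcy-like gene, changed by −1.05 (SE 0.23) on 1 of 3 probe sets and Mat2b, the regulatory subunit of methionine adenosyltransferase, by −0.33 (SE 0.09).

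**Figure D4:**
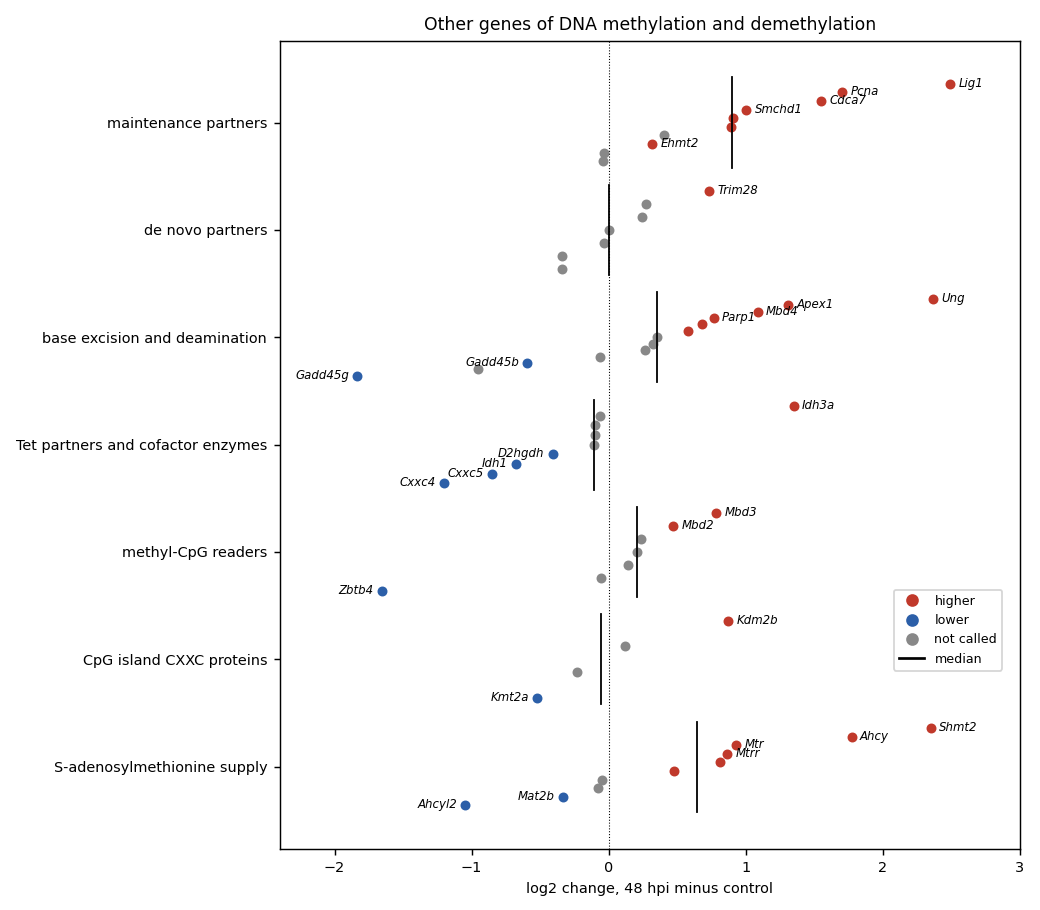
Log2 change (48 hpi minus control) on the brightest probe set of the 60 measured genes in 7 lists, coloured by call, with the list median as a bar and the called genes at either end named. Maintenance partners (median 0.90) and the supply of S-adenosylmethionine (0.64) lie mainly to the right of 0. Of 9 Tet partners and cofactor enzymes 4 are called lower and 1 higher, and 4 not called lie close to 0 (−0.10 to −0.06). Points are spread vertically within a list for legibility.

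Genes whose profile over the 6 arrays was most like that of each member were ranked by the root mean square difference of the centred log2 values, over 12272 genes above background. Nearest to Uhrf1 were Mtm1 (0.078), the cohesin regulator Cdca5 (0.095) and Rrm2 (0.116). Dnmt1 lay nearest to Lin9 (0.048), a subunit of the MuvB complex, then Anapc15 and Rrs1 (0.070 each). For Hells the closest were Mars1 (0.045), Utp20 (0.051) and Znhit3 (0.055). Tet2 had looser neighbours, the antisense transcript Airn (0.105), 3300002A11Rik (0.129) and the nuclear long noncoding RNA Neat1 (0.141). Dnmt3a was nearest to Armcx2 (0.036), Dennd11 (0.042) and 2010320M18Rik (0.042). These profiles are shaped mainly by the step between the groups, and the arrays share their pools.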

How the data were processed

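Tracheal epithelium of 3 control pools and 3 pools at 48 hpi was compared. The authors amplified RNA with MessageAmp Premier, hybridized it to Mouse Genome arrays and normalized by RMA in Partek 6.5. The submitters' processing notes also name Affymetrix Expression Console 1.1. The deposited values are log2 intensities without detection calls, and background was therefore taken from receptor genes. Control probe sets (64) were left out. The mesenchymal arrays were not analysed here.

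All 45037 probe sets were fitted together with limma 3.58.1 in R 4.3.3 (lmFit, eBayes), and p-values were adjusted by the Benjamini-Hochberg method. The test was checked on simulated data. Each gene was counted on its brightest probe set over the 6 arrays. RefSeq promoter windows were matched by symbol. Replicates were separate pools, and 3 arrays per group limit the precision.

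The members and lists were chosen with earlier results of these data known. All members are named. Of each other list the 4 called genes with the largest rise and fall, and for each member the 3 most alike genes, could be named. Tyms, Ptprc and Trp63 were named after their values were seen. Alternatives were other variance models, a one-way analysis of variance, scalings, filters, probe set choices, the replicate block, array weights, thresholds and leaving out each array. Listed genes with no single-symbol probe set were not analysed here.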

Additional observations from a re-analysis of the deposited data

How the results depend on the processing

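Of 418 values of the 24 probe sets under alternatives, 372 kept their direction and their side of the threshold. Of the others 11 lost the call, 8 gained one and 27 changed sign, all 27 on probe sets that were not called. The variance models, the one-way analysis of variance, the filters, the replicate block and the stricter threshold left each log2 change as in the main fit. Direction could not change under those alternatives. The 7 called maintenance probe sets and Dnmt3b 1449052_a_at were called higher under every alternative run on them. Uhrf1 1415810_at ranged from 3.40 to 4.42, Dnmt1 1435122_x_at from 1.64 to 2.16 and Hells 1430139_at from 1.07 to 2.45, the highest with the mean of its probe sets. Dnmt3a 1423063_at lost its call under 9 of 19 alternatives (−0.62 to −0.09), and Tet2 1438781_at under the one-way analysis of variance and at a threshold of 0.01 (−1.37 to −0.64). Uhrf2 1454920_at was called higher with a common median (0.40), with equal hybridization controls (0.66) and without control replicate 3 (0.43). Dnmt3b 1418351_a_at was called with equal hybridization controls (0.71) and the mean of probe sets (0.52). Hells 1453361_at was called with equal hybridization controls (1.65), with the replicate block (1.31) and without 48 hpi replicate 1 (1.88). The fit with equal hybridization controls gave probe sets the same SE (0.24). Calls gained there therefore did not weigh the scatter of a probe set, such as that of Hells 1453361_at (SE 0.54 in the main fit). The cause of the lost and gained calls was not tested.

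The number of member probe sets called lower was 0 with a one-way analysis of variance of each probe set (adjusted p) and at a threshold of 0.01, 1 with a common median, with equal hybridization controls and with the mean of probe sets, and 1 to 2 when 1 array was left out. The number called higher was 3 with 1 probe set a gene and 4 with the mean of probe sets, where fewer features were counted. At an unadjusted p below 0.05, the threshold of the methods and an alternative chosen after seeing the data, the same analysis of variance gave 8 higher and 2 lower, beside 17.4% and 16.9% of all probe sets. The two-way form over both tissues was not run, since the mesenchyme was not analysed here. Pathway genes called lower numbered 4 with the one-way analysis of variance and with equal hybridization controls and 6 at a threshold of 0.01. The maintenance median was 2.16 with equal hybridization controls and 2.45 with the mean of probe sets, and the de novo median 0.28 and 0.21. The Tet median was −0.077 with a common median, 0.18 with equal hybridization controls, −0.066 without x and s probe sets, −0.052 with the mean of probe sets and −0.212 to −0.055 when 1 array was left out.

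Of the 27 sign changes 11 came from a common median or equal hybridization controls, which raise every probe set alike by 0.082 and 0.34 and so carry nothing particular to these genes. With equal hybridization controls Dnmt3a 1423065_at was 0.27 and 1460324_at 0.20, Tet1 1429448_s_at 0.18, 1419896_at 0.28 and 1419897_at 0.33, Tet2 1455300_at 0.19 and Tet3 0.33. With a common median Dnmt3a 1423065_at was 0.0099, Tet1 1419896_at 0.016 and 1419897_at 0.066 and Tet3 0.070. With repeated quantile normalization Dnmt3a 1423066_at was −0.048, Tet1 1419896_at 0.00022 and 1419897_at 0.018. With array weights Dnmt3a 1423066_at was −0.069, Tet1 1455425_at −0.013 and Tet3 0.0041. Leaving out 1 array gave Dnmt3a 1423066_at −0.078 to 0.117, Dnmt3a 1423065_at −0.183 to 0.051, Dnmt3a 1460324_at −0.375 to 0.044, Tet1 1419896_at −0.121 to 0.021, Tet1 1419897_at −0.067 to 0.049 and Tet1 1455425_at −0.106 to 0.220.

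Same-numbered pools deviated together with r of 0.20, 0.08 and 0.19. The labels do not say whether pools of the same number share anything besides it. With the replicate number as a block, 9 member probe sets were higher and 2 lower, and 26 pathway genes were higher and 11 lower. Every pool correlated best with its own number, a hint from the data and not from the design.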
